A study of Mus with 6 samples.

Results

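Signals that switch on mitogen-activated protein kinases (MAPK) also switch on the genes that end the response. The products of these feedback genes strip phosphate from the kinases (the dual specificity phosphatases encoded by Dusp1, Dusp5 and Dusp6), block receptor signalling to Ras and ERK (the Sprouty proteins encoded by Spry2 and Spry4) or shorten the life of induced mRNAs (the zinc finger proteins encoded by Zfp36, Zfp36l1 and Zfp36l2 and the deadenylation cofactor encoded by Btg2). Sik1 encodes a kinase that is induced by cAMP and calcium and that holds back the CREB coactivators of the CRTC family. In endothelium this circuit is set off by growth factors, shear stress and inflammatory cytokines. The 10 genes named here were taken by symbol from the 20893 genes measured, and all 10 were found.

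The cells were cardiac microvascular endothelial cells from mouse hearts whose left coronary artery had been ligated, the standard model of myocardial infarction, and they were collected on magnetic beads as CD31-positive, CD45-negative cells. The Ccl28 knockout (KO) and wild-type (WT) groups have 3 libraries each, with the replicate numbers 2, 3 and 4 in both, and every library comes from a ligated heart. CCL28 is a chemokine that binds the receptors CCR10 and CCR3. Strain, sex, age, time after ligation and the kind of knockout allele are not given in the sources used here, and the genotype entries of KO replicates 3 and 4 read Ccl29-KO and Ccl30-KO where their titles read Ccl28-KO. Ccl28 itself had 0 reads in each KO library, against 16, 11 and 24 reads in WT replicates 2, 3 and 4. The labels do not say whether each replicate is its own animal. The spread behind every p-value is therefore that of these libraries and could be technical.

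Expression is given as FPKM, fragment numbers that the authors scaled to transcript length and to the size of each library. Depth was 36004457 to 37780513 reads assigned to genes in KO libraries and 39104282 to 40500067 in WT libraries. The endothelial gene Pecam1, which encodes CD31, had 560.5 to 647.7 FPKM in KO and 673.2 to 743.9 FPKM in WT, and Ptprc, which encodes CD45, had 1.01 to 1.41 FPKM in KO and 0.871 to 1.71 FPKM in WT. Among 8 endothelial markers 4 fell, 2 rose and 2 did not pass, with log2 fold changes from -1.11 to 0.34 and a median of -0.32. Pecam1 was among those that did not pass (adjusted p = 0.0709). Cdh5, the VE-cadherin gene, was one that fell, with 569.4 ± 52.4 FPKM in KO and 766.3 ± 14.1 FPKM in WT (adjusted p = 0.00354), and does not stand for the list. Markers of some other cell types moved with genotype. The summed level of 15 leukocyte markers was 274.8 to 401.2 FPKM in KO and 113.0 to 247.3 FPKM in WT and 9 of the 13 tested rose. The summed level of 8 fibroblast markers was 13.3 to 16.5 FPKM in KO and 27.3 to 31.9 FPKM in WT, and 6 of the 6 tested fell. That of 9 mural cell markers was 360.3 to 565.8 FPKM in KO and 473.0 to 618.9 FPKM in WT, and 6 of the 9 tested fell. Over all tested genes 18.3% rose and 25.8% fell. Of 9 cardiomyocyte markers 7 were tested, and 2 rose, 1 fell and 4 did not pass. Their summed level was 173.7 to 209.1 FPKM in KO and 131.9 to 188.6 FPKM in WT, which overlap. With the length trend described further on removed, 5 of the 13 leukocyte markers rose, and 5 of the 6 fibroblast and 5 of the 9 mural cell markers fell. No marker of these lists was listed at 0 in all libraries. Their part in the results on the feedback genes was not tested, and in a bulk preparation fewer cells of one type and less RNA per cell cannot be told apart.

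Of the 10 feedback regulators, 9 were lower in KO and 1, Zfp36l2, was higher. Sik1, Dusp1, Spry4, Dusp5 and Dusp6 had the larger falls on the log2(FPKM + 1) scale, and Btg2, Zfp36, Spry2 and Zfp36l1 the smaller ones. Both the order among the first 5 and the split from the others depend on how the values are treated. With a length trend removed Dusp1 fell more than Sik1 (log2 fold changes of -1.28 and -1.20). In that fit Zfp36 (-0.76) and Btg2 (-0.60) also fell more than Spry4 (-0.58). By the ratio of mean FPKM, Dusp5 came second. The comparison of KO with WT was made with limma on log2(FPKM + 1) across 10806 genes that had at least 1 FPKM in at least 3 libraries, a filter that all 10 passed, with a Benjamini-Hochberg adjusted p of 0.05 as the threshold. In that test 44.2% of all genes passed, as 25.8% fell and 18.3% rose. The median log2 fold change of the 10 genes was -0.69, beside -0.03 over all genes tested. The KO and WT values of none of the 10 genes overlapped. KO below WT without overlap, seen in 9 of the 10, was found in 31.9% of all tested genes, and KO above WT without overlap, seen in 1 of the 10, was found in 22.8%. Reads behind the 10 genes ran from 89 to 13281 per library.

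**Figure D1:**
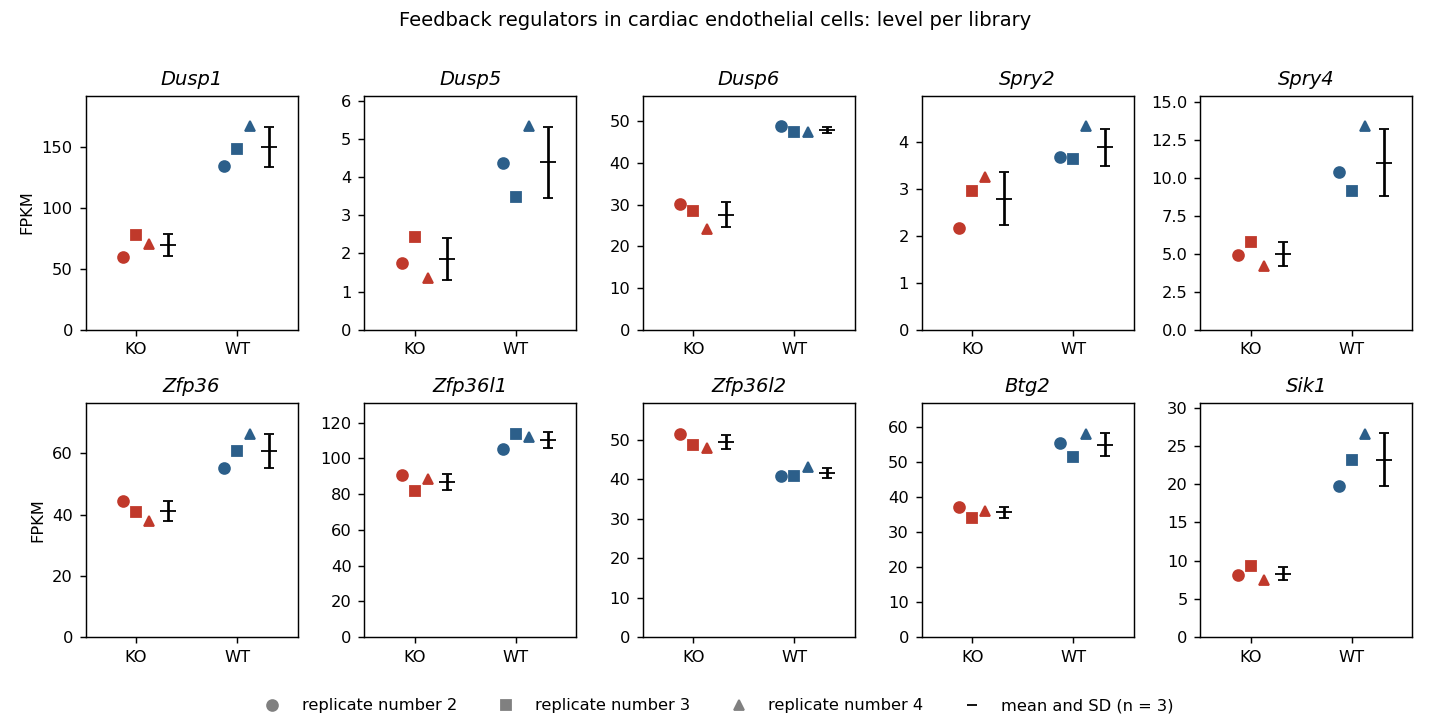
FPKM (vertical axes, from 0) of the 10 feedback regulators in each KO library (red, left) and WT library (blue, right). Symbols give the replicate number and bars the mean and SD of 3 libraries. In 9 panels every KO point lies below every WT point, and in the Zfp36l2 panel every KO point lies above.

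The phosphatase genes were lower as a group. Dusp1 (gene ID 19252, chromosome 17 from 26505591 to 26508472, GRCm38) encodes a nuclear phosphatase of p38, JNK and ERK kinases and is itself an immediate early gene. It had 59.6, 77.6 and 70.0 FPKM in KO replicates 2, 3 and 4, against 134.4, 148.0 and 166.8 FPKM in WT replicates 2, 3 and 4. The highest KO library therefore stood well under the lowest WT library. Its means were 69.1 ± 9.0 FPKM in KO and 149.7 ± 16.3 FPKM in WT (SD, n = 3 each), and the log2 fold change was -1.11 (SE 0.11, adjusted p = 0.000338). With that change Dusp1 ranked 33rd from the most lowered of the 10806 tested genes.

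Dusp6 (gene ID 67603, chromosome 10 from 99263231 to 99267489) encodes the cytoplasmic phosphatase of ERK. It had 30.1, 28.5 and 24.2 FPKM in KO, against 48.8, 47.5 and 47.4 FPKM in WT, in the order of the replicate numbers. The WT libraries lay close together, and the KO libraries were 42.4% lower on average (log2 fold change -0.78, SE 0.09, adjusted p = 0.000456). Dusp5 (gene ID 240672, chromosome 19 from 53529145 to 53541809), which encodes a nuclear phosphatase specific to ERK, was expressed at a low level. Its values were 1.75, 2.44 and 1.36 FPKM in KO and 4.37, 3.47 and 5.34 FPKM in WT, from 89 to 382 reads per library. The ratio of means made Dusp5 2.37-fold lower in KO, and the log2 fold change was -0.92 (SE 0.16, adjusted p = 0.00194). Adding 1 to the FPKM understates the change of so low a gene. Dusp6 lies over an annotated long non-coding RNA gene, Gm34921, and reads of the pair could have been counted for either, since the strand setting used in counting is not given in the sources used here.

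The Sprouty genes fell by unequal amounts. Spry4 (gene ID 24066, chromosome 18 from 38586247 to 38601347) had 4.90, 5.80 and 4.21 FPKM in KO and 10.4, 9.16 and 13.4 FPKM in WT, so that the mean of 4.97 ± 0.796 FPKM in KO stood against 11 ± 2.21 FPKM in WT. The log2 fold change was -1.0 (SE 0.14, adjusted p = 0.000787). Spry2 (gene ID 24064, chromosome 14 from 105891947 to 105896819) had 2.16, 2.94 and 3.25 FPKM in KO and 3.68, 3.63 and 4.33 FPKM in WT. Here the highest KO and the lowest WT library were close, and the log2 fold change of -0.37 (SE 0.13) had an adjusted p of 0.0352. In the authors' deposited table Spry2 had a log2 fold change of -0.42 and q = 0.0519, the one gene of the 10 above a q of 0.05 there. The Spry2 call was also lost when the libraries were scaled by their median ratio (adjusted p = 0.0537), with quantile normalization (adjusted p = 0.142), and without KO replicate 2 (log2 fold change -0.25, adjusted p = 0.124) or without any 1 of the WT libraries (adjusted p = 0.0505 to 0.127).

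The zinc finger genes of the tristetraprolin family moved in opposite directions. Zfp36 (gene ID 22695, chromosome 7 from 28376784 to 28379228) encodes tristetraprolin, which binds AU-rich elements in the mRNAs of cytokines and early genes and brings the CCR4-NOT deadenylase to them. It had 44.6, 40.9 and 38.0 FPKM in KO and 55.3, 60.7 and 66.4 FPKM in WT. It was thus 32.4% lower in KO (log2 fold change -0.55, SE 0.09, adjusted p = 0.0012). Zfp36l1 (gene ID 12192, chromosome 12 from 80107760 to 80113013), a paralog that binds the same kind of element, had 90.7, 81.9 and 88.3 FPKM in KO and 105.1, 113.8 and 112.1 FPKM in WT. Its fall of 21.2% was the smallest of the 9 and passed the test (log2 fold change -0.34, SE 0.07, adjusted p = 0.0041).

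Zfp36l2 (gene ID 12193, chromosome 17 from 84183924 to 84187947), the third family member measured, had 51.5, 48.7 and 48.0 FPKM in KO and 40.8, 40.7 and 43.0 FPKM in WT. Both groups were tight and did not overlap, and the gene was 1.19-fold higher in KO (log2 fold change 0.25, SE 0.07, adjusted p = 0.0142). The interval of its log2 fold change, 0.10 to 0.39 at 95%, lay apart from those of Zfp36, -0.75 to -0.36, and Zfp36l1, -0.50 to -0.18. The call of Zfp36l2 was lost without KO replicate 2 (log2 fold change 0.22, adjusted p = 0.0596). In the authors' deposited table Zfp36l2 had a log2 fold change of 0.31 and q = 0.000292.

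Btg2 (gene ID 12227, chromosome 1 from 134074865 to 134079155) encodes an antiproliferative protein that binds the CCR4-NOT deadenylase and is a known p53 target. It had 37.2, 34.0 and 36.0 FPKM in KO and 55.4, 51.5 and 58.1 FPKM in WT. The KO libraries differed among themselves by far less than they differed from WT, and the log2 fold change was -0.61 (SE 0.07, adjusted p = 0.000523). Sik1 (gene ID 17691, chromosome 17 from 31844248 to 31855804) had 8.13, 9.25 and 7.53 FPKM in KO and 19.8, 23.1 and 26.6 FPKM in WT. Its mean of 8.30 ± 0.872 FPKM in KO against 23.2 ± 3.44 FPKM in WT was a 2.79-fold lower level in KO, with a log2 fold change of -1.37 (SE 0.11, adjusted p = 0.00023) and rank 18 from the most lowered gene. Sik1 overlaps the annotated long non-coding RNA gene Gm41564, so the same limit on counting applies as for Dusp6. Sik1 and Dusp1 were the 2 of the 10 that were called and had a log2 fold change of -1 or lower, which 0.555% of tested genes did, and Spry4 lay just short of that line. The count was 3 with the length trend removed and 3 without WT replicate 2, and it was 4, with Dusp5 and Spry4 added, without KO replicate 3, without WT replicate 3, with 0.1 added in place of 1 and in limma-voom on reads.

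FPKM is scaled to length, so levels can be roughly set between genes. A trend with length that differed between the genotypes, described further on, was left in these values. Its part in the order below was not tested. In KO libraries Zfp36l1 was highest, followed by Dusp1, Zfp36l2, Zfp36, Btg2, Dusp6, Sik1 and Spry4, each apart from its neighbours in every library, with Spry2 and Dusp5 overlapping at the bottom. In WT libraries Dusp1 was highest, followed by Zfp36l1, and Zfp36 and Btg2 came next with overlapping values. Dusp6, Zfp36l2, Sik1 and Spry4 followed without overlap, and Dusp5 and Spry2 overlapped at the bottom. Dusp1 and Zfp36l1 therefore stood in opposite order in the 2 genotypes, and Zfp36l2 stood above Zfp36, Btg2 and Dusp6 in KO and below all 3 in WT.

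Whether the feedback genes fell in step with the immediate early genes was asked next. Immediate early genes encode transcription factors and other proteins that cells make within minutes of a stimulus, without new protein synthesis. Of 22 tested members of a list of 24, chosen with earlier results of these data known, 13 fell and the other 9 did not pass the test. Their median log2 fold change was -0.71, beside -0.69 for the feedback genes and -0.03 for all tested genes. The closeness of the first 2 medians depends on the 1 added to the FPKM, on the filter and on the normalization. The immediate early median was -0.94 with 0.1 added and -0.97 in limma-voom on reads, while that of the feedback genes was -0.71 in both. The feedback genes had the lower median with quantile normalization (-0.75, against -0.61 for the immediate early genes). The same held with no expression filter (-0.69 against -0.55) and with a filter of 5 FPKM (-0.69 against -0.54). When 1 library was left out the immediate early median ran from -0.84 to -0.58 and that of the feedback genes from -0.74 to -0.65. Both sets of values come from the same libraries and the same contrast, so they are not separate evidence.

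Egr1, a zinc finger transcription factor gene downstream of ERK, had 22.6, 21.7 and 18.0 FPKM in KO and 70.1, 71.2 and 65.5 FPKM in WT, a log2 fold change of -1.69 (SE 0.09). Fos, whose product pairs with that of Jun in the AP-1 dimer, had 3.19, 3.79 and 3.65 FPKM in KO and 18.7, 16.5 and 23.3 FPKM in WT, a log2 fold change of -2.16 (SE 0.12). Nr4a1, an orphan nuclear receptor gene, and Jun had log2 fold changes of -2.01 and -1.35. On this scale the 5 immediate early genes with a log2 fold change under that of Sik1 were Fos, Nr4a1 and Egr1 together with Arc and Ccn1. Arc at -1.40 and Ccn1 at -1.40, named after their values were seen, lay within the 95% interval of Sik1, -1.63 to -1.12. By the ratio of mean FPKM, Arc (0.254) was below Sik1 (0.358) and Ccn1 (0.377) was not. Fosb (0.268), Egr3 (0.239) and Egr2 (0.241, too low to be tested), also named after their values were seen, were below Sik1 by that ratio too. Among the 9 that did not pass was Junb, also named after its values were seen, with 63.5 ± 2.99 FPKM in KO and 68.0 ± 8.70 FPKM in WT.

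The difference itself was tested by taking, in each library, the log2(FPKM + 1) of a feedback gene minus the mean log2(FPKM + 1) of the 22 immediate early genes. That mean was 3.61, 3.86 and 3.74 in KO replicates 2, 3 and 4 and 4.52, 4.32 and 4.65 in WT replicates 2, 3 and 4, a difference of -0.76. An exact two-sided permutation test cannot go below p = 0.1 with 3 against 3 libraries, and none of the 10 genes went below p = 0.2 once adjusted over the 10. For Sik1, which fell further than the list, the difference was -0.61, with relative values of -0.42, -0.50 and -0.65 in KO and -0.14, 0.27 and 0.13 in WT. The differences of -0.35 for Dusp1 and -0.24 for Spry4 also came without overlap between the groups (exact p = 0.1 for each of these 3 genes). With 0.1 added in place of 1 the groups overlapped for Dusp1 and Spry4 (exact p = 0.2 for each), and 1 gene, Sik1, was more lowered than the list without overlap. Zfp36l2 stood 1.01 and Spry2 0.39 above the change of the list, again without overlap (exact p = 0.1 for each). The list mean changed by -0.76 and the median of all tested genes by -0.03, so a gene that did not move would also stand above the list. The share of all tested genes that stood apart from the list in either direction was not counted. For the remaining 5 genes the groups overlapped, with differences from -0.16 for Dusp5 and -0.02 for Dusp6 to 0.15 for Btg2, 0.21 for Zfp36 and 0.42 for Zfp36l1 (exact p of 0.2 to 0.9). With 0.1 added in place of 1, Zfp36 (0.35) and Zfp36l1 (0.56) stood above the list without overlap (exact p = 0.1 for each). Dusp5, Dusp6 and Btg2 still overlapped.

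**Figure D2:**
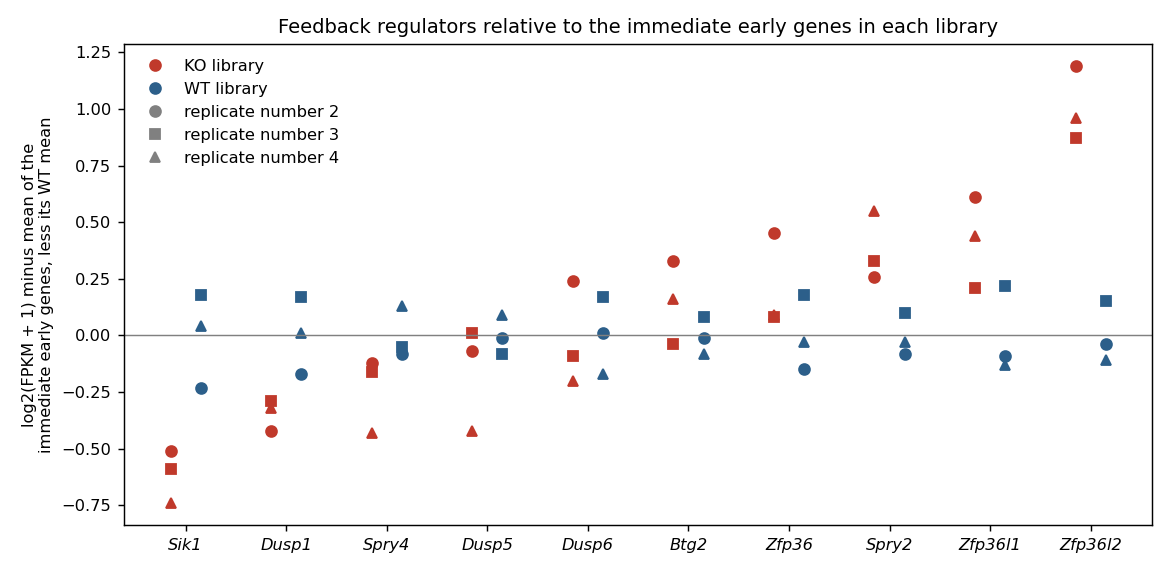
Log2(FPKM + 1) of each feedback regulator minus the mean of the 22 immediate early genes in the same library, with the gene's WT mean set to 0 (vertical axis), for KO libraries (red, left) and WT libraries (blue, right). Genes are ordered from Sik1, at -0.61 on average in KO, to Zfp36l2, at 1.01.

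Within the WT group the feedback genes and the immediate early genes peaked in the same library. WT replicate 4 was the highest WT library for 8 of the 10 feedback genes and for 18 of the 22 immediate early genes, while it was the highest for 33.5% of all tested genes. Within the KO group they did not share their lowest library. KO replicate 2 was lowest for 16 of the 22 immediate early genes and for 2 of the 10 feedback genes, Dusp1 and Spry2, and KO replicate 4 was lowest for 6 of the 10 feedback genes and 3 of the 22 immediate early genes. Over all tested genes KO replicate 2 was lowest for 25.5% and KO replicate 4 for 38.6%. These are counts within groups of 3 libraries and carry no test.

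Other genes of the same circuits were read from fixed lists. The share of each list that fell stands against 25.8% of all tested genes, or 9.42% with the length trend removed. Among 4 tested genes for other MAPK phosphatases, 1 fell (25%), Dusp8, with 5.01 ± 1.68 FPKM in KO and 7.58 ± 0.924 FPKM in WT, and overlapping groups. Dusp2 had 2.30 ± 0.253 FPKM in KO and 2.68 ± 0.577 FPKM in WT, and Dusp16 had 5.73 ± 1.26 FPKM in KO and 6.94 ± 0.768 FPKM in WT. Neither passed the test. Among the 8 tested genes for other brakes on receptors, Ras and ERK, 6 fell (75%) and 2 did not pass, with a median log2 fold change of -0.38. Errfi1, whose product inhibits the EGF receptor, had 8.19 ± 0.255 FPKM in KO and 14.8 ± 1.83 FPKM in WT. Il17rd, which encodes the ERK inhibitor Sef, had 2.68 ± 0.441 FPKM in KO and 4.45 ± 0.224 FPKM in WT, and the Sprouty-related gene Spred1 had 7.01 ± 0.847 FPKM in KO and 10.7 ± 0.999 FPKM in WT. With a length trend removed from each library, as described further on, 1 of these 8 fell, Errfi1 (adjusted p = 0.00241), while Il17rd had an adjusted p of 0.154, Spred1 an adjusted p of 0.108 and Dusp8 an adjusted p of 0.269.

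Of 25 tested genes of the MAPK cascade itself, 7 fell and 4 rose, shares of 28% and 16% near the 25.8% and 18.3% of all tested genes, and their median log2 fold change of -0.03 equalled that of all tested genes. With the length trend removed 2 of the 25 fell and 6 rose. Hras rose to 66.3 ± 2.48 FPKM in KO, against 47.1 ± 3.00 FPKM in WT, while Braf had 1.02 ± 0.158 FPKM in KO and 2.27 ± 0.157 FPKM in WT and the ERK-activated kinase gene Rps6ka3 had 10.9 ± 1.36 FPKM in KO and 18.2 ± 1.77 FPKM in WT. Once that trend was taken out Braf lost its call (log2 fold change -0.29, adjusted p = 0.0904) and Rps6ka3 had a log2 fold change of -0.30, in place of -0.69. Of 8 tested targets of ERK, 4 of which are also in the immediate early list, 2 fell (25%, near the share of all genes). These were Egr1 and Phlda1, and Phlda1 had 1.84 ± 0.437 FPKM in KO and 3.03 ± 0.530 FPKM in WT.

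The enzymes that carry out deadenylation and decapping included 8 of 21 tested genes that fell (38.1%, against 25.8% of all tested genes) and 13 that did not pass, with a median log2 fold change of -0.21. Cnot6l and Cnot6 encode catalytic deadenylases of CCR4-NOT. Cnot6l had 3.48 ± 0.373 FPKM in KO and 6.71 ± 0.314 FPKM in WT, and Cnot6 had 8.78 ± 0.758 FPKM in KO and 14.4 ± 1.20 FPKM in WT. Ddx6, a helicase gene of decapping, had 16.9 ± 0.277 FPKM in KO and 28.7 ± 1.33 FPKM in WT. With the length trend removed, 4 of the 21 fell and 2 rose, and the log2 fold changes were -0.38 for Cnot6l, -0.37 for Cnot6 and -0.35 for Ddx6, in place of -0.79, -0.65 and -0.73. In the list of other BTG/TOB and RNA-binding decay factors, 4 of 9 fell and 2 rose. Once the trend with length was taken out, 2 of these 9 were lower and 2 higher. Tob2 had 8.99 ± 0.580 FPKM in KO and 14.2 ± 0.281 FPKM in WT and Zc3h12c had 1.58 ± 0.0973 FPKM in KO and 2.90 ± 0.135 FPKM in WT, whereas Btg1, the close relative of Btg2, rose to 43.7 ± 3.14 FPKM in KO, against 33.2 ± 2.02 FPKM in WT. In that corrected fit Zc3h12c lost its call (adjusted p = 0.137), and the log2 fold change of Tob2 was -0.36, in place of -0.61. The list of other SIK kinases, CRTC coactivators, CREB factors and class IIa histone deacetylases had 4 of 12 lower (33.3%, against 25.8% of all tested genes), and 8 did not pass. Among them Creb1 had 3.30 ± 0.421 FPKM in KO and 6.10 ± 0.517 FPKM in WT, Sik2 had 2.65 ± 0.0447 FPKM in KO and 4.20 ± 0.257 FPKM in WT, and Sik3 had 7.70 ± 0.329 FPKM in KO and 10.3 ± 0.651 FPKM in WT. After removal of the length trend 1 of these 12 was lower and 2 were higher. Sik2 (adjusted p = 0.19) and Sik3 (adjusted p = 0.387) then lost their calls, and the log2 fold change of Creb1 was -0.34, in place of -0.72.

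Known target mRNAs of tristetraprolin gave no call. Of 7 tested genes, 0 passed in limma, while 4 were higher and 0 lower at an unadjusted p under 0.05, and 1 was higher with limma-voom, Ccl2. Their median log2 fold change was 0.31, and it was -0.09 with the length trend removed, so the direction of the list turned with that correction, under which 1 of the 7, Il6 (named after its values were seen), was lower. Ccl2, a chemokine gene, had 19.6 ± 5.76 FPKM in KO and 12.1 ± 4.41 FPKM in WT with overlapping groups. Cxcl1 had 5.24 ± 0.439 FPKM in KO and 4.05 ± 0.816 FPKM in WT, and Tnf had 2.49 ± 0.302 FPKM in KO and 1.79 ± 0.463 FPKM in WT. The summed leukocyte markers given above were also higher in KO, and their part in these values was not tested.

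**Figure D3:**
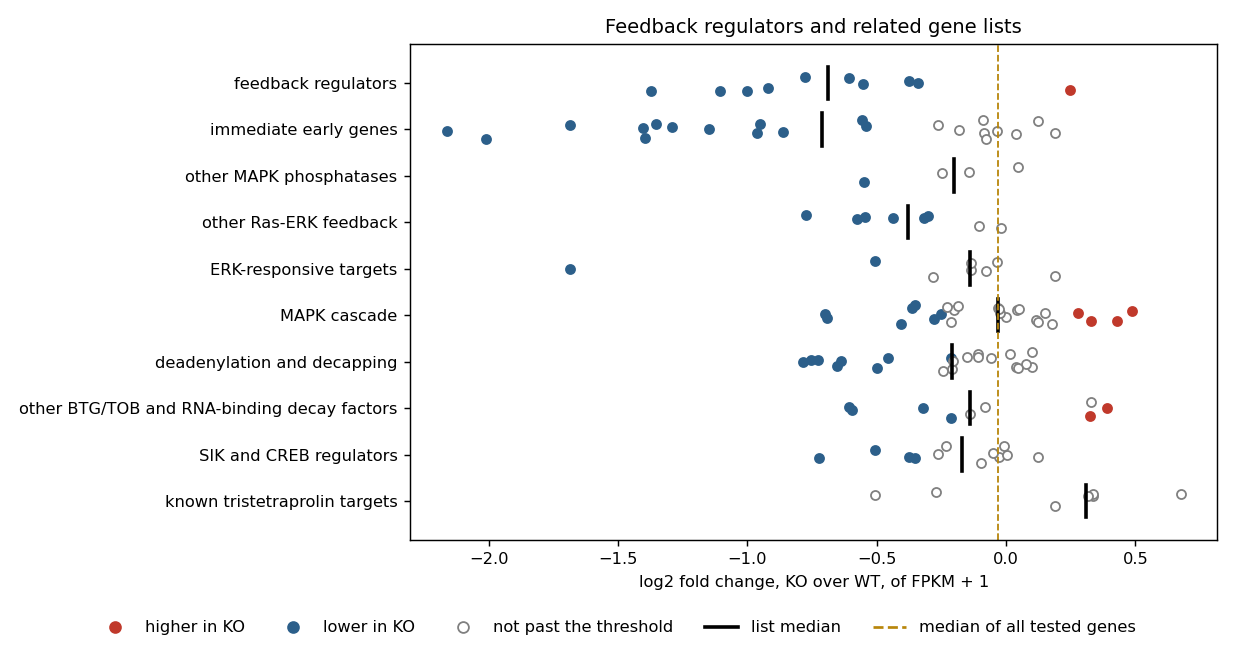
Log2 fold change of FPKM + 1, KO over WT (horizontal axis), of every tested gene of the feedback regulators and of 9 related lists (rows), with the list medians as black bars. The medians are -0.69 for the feedback regulators and -0.71 for the immediate early genes, -0.38 for other Ras-ERK feedback genes, and between -0.21 and 0.31 for the other lists.

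Some of these values moved with a correction for transcript length. Log2 values fell with log2 length in KO libraries relative to the mean of all libraries (slopes of -0.155 to -0.091) and rose with it in WT libraries (slopes of 0.101 to 0.135), so length and genotype run together. Spry4, whose implied transcript length of 10375 nt puts it among the longest 20% of tested genes, had a log2 fold change of -0.58 once a smooth length trend was taken out of each library, in place of -1.0, and kept its call (adjusted p = 0.0142). Spry2, at 4440 nt, had -0.22 and lost its call (adjusted p = 0.266). Dusp1, Dusp5 and Zfp36, with 1942, 1815 and 1765 nt the shortest of the 10, had larger falls with the trend removed than without it, with log2 fold changes of -1.28, -1.12 and -0.76. Zfp36l2 was higher at 0.31. In that fit 8 of the 10 feedback genes fell and 1 rose, while 9.42% of all tested genes fell and 9.26% rose, and 14 of the 22 immediate early genes fell.

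**Figure D4:**
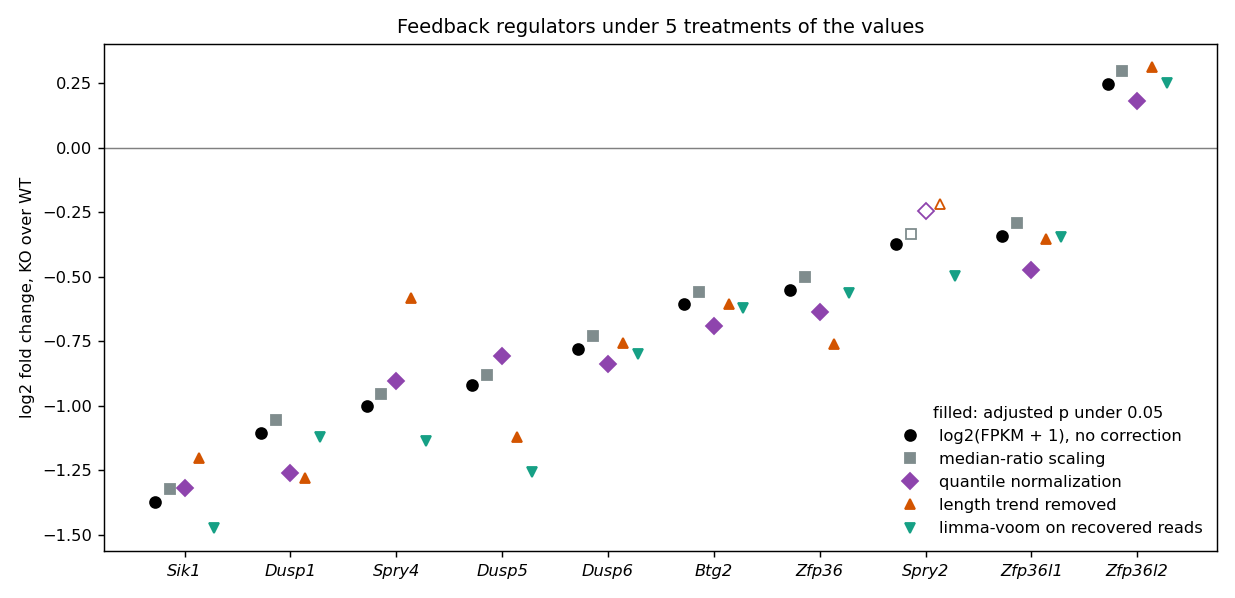
Log2 fold change of KO over WT (vertical axis) of the 10 feedback regulators under 5 treatments of the values, with filled symbols for an adjusted p under 0.05. Spry4 moves the most with the length trend removed, to -0.58, and Spry2 is the gene with open symbols.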

How the data were processed

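The authors deposited FPKM values for 20893 genes in 6 libraries and a table of 17686 genes. Per the file headers, that second table holds group means of normalized signal and the results of a DESeq2 run by the authors: q-value, p-value, log2 fold change and its ratio. Libraries were made from 1 µg of RNA with a stranded mRNA kit, per the labels' protocols. Per the submitters' processing notes, which assign no roles, the build was mm10 and the tools were DESeq2 1.22.1, featureCounts 1.6.2, HISAT2 2.1.0, fastp 0.19.3, GATK 4.0.11.0, Cufflinks and StringTie 1.3.4d. Coordinates are from RefSeq's GRCm38.p6 table, matched by gene ID (20334 of 20893).

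Groups came from the sample titles. limma 3.58.1 (R 4.3.3, trend, genotype only) was run on log2(FPKM + 1). It was also run on simulated reads with 200 changed genes and no trend with length. These data have far more called genes and a length trend, so that run does not vouch for the calls. The other steps used scipy 1.17.1, pandas 2.3.3, numpy 2.4.6 and matplotlib 3.10.9 under Python 3.11.15. Fold changes are KO over WT. Comparing FPKM with the deposited group means gave library factors (median relative residual 6.89e-11) and whole reads: of values up to 1000 reads, 100.0% lay within 0.05 of a whole number. These gave depth, implied lengths and the limma-voom alternative. The chi-square per gene between replicates was 18.4 to 62.1, far over sampling noise. Each library was counted as a replicate, though this spread could be technical and does not show that the libraries are separate animals. The length trend was a lowess fit per library (span 0.3).

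The 10 genes and the lists (186 of 189 symbols found, Ccn1 by its older symbol Cyr61) were chosen with earlier results of these data known. Besides the 10, the text names Egr1, Fos, Jun and Nr4a1, up to 3 genes per list with the smallest p, and for each of the 10 the 2 genes nearest to it in pattern. Ccl28, Pecam1, Cdh5 and Ptprc are named as checks of the labels, and genes named after their values were seen are marked so. Alternatives were median-ratio scaling, quantile normalization, a pseudocount of 0.1, no filter, a filter of 5 FPKM, the replicate number as a block, length trend removal, limma-voom and leaving out each library.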

Additional observations from a re-analysis of the deposited data

How the results depend on the processing

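Among the 10 feedback genes, Dusp1, Dusp5, Dusp6, Spry4, Zfp36, Zfp36l1, Btg2 and Sik1 kept direction and call under every alternative in which they were tested (14 each, 13 for Dusp5, which the 5 FPKM filter removes). Spry2 lost its call in 8 of 13, with log2 fold changes of -0.50 to -0.22, including with no expression filter (adjusted p = 0.127), and Zfp36l2 in 2 of 14, with log2 fold changes of 0.18 to 0.31. The number of feedback genes higher in KO was 1, and 0 with the replicate number as a block, where Zfp36l2 had an adjusted p of 0.0542; leaving out 1 library gave 0 to 1. The number lower was 7 to 9. Over all tested genes 1982 were higher and 2790 lower, and with the length trend removed 1001 were higher and 1018 lower. With the replicate block 1542 were higher and 2207 lower. Deviations from the group means of same-numbered libraries correlated at -0.19, -0.35 and -0.22 for the numbers 2, 3 and 4. They thus gave no sign of pairing, but 3 libraries a group are too few to show that the libraries were unpaired. The number of feedback genes less lowered than the immediate early genes without overlap was 2, 4 with a pseudocount of 0.1 and 9 against Egr1 alone, than which 99.7% of all other tested genes were also less lowered without overlap, and 2 to 4 when 1 library was left out; it was 4 without KO replicate 3 and 4 without WT replicate 3. The number more lowered without overlap was 3, and 1 with a pseudocount of 0.1. For the list, unlike for Egr1, the share of all tested genes was not counted. The causes were not tested. With 3 libraries a group, the exact tests could not pass 0.05.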

Other observations

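The genes nearest in pattern to each feedback regulator were found by the root mean square difference of centred log2(FPKM + 1) over the 6 libraries, among tested genes of at least 5 FPKM on average. The measure follows mostly the difference between genotypes, since 44.2% of tested genes were called, and it carries no test. Sik1 lay nearest to the nuclear RNA Malat1 (0.075) and to Jun (0.080). Dusp5 lay nearest to the ion cotransporter gene Slc12a2 (0.066) and then to Spry4 (0.071). Spry4 lay nearest to Purb (0.068) and Slc12a2 (0.076); Dusp5 and Spry2 were themselves too low to count as neighbours. Dusp6 lay nearest to the calcium channel gene Itpr2 (0.034) and the netrin receptor gene Unc5b (0.035). Dusp1 had no close neighbour, with Klf7 at 0.124 and Ahnak at 0.129. Zfp36 lay nearest to Mdm4 (0.022) and St3gal1 (0.027), Zfp36l1 to Zfp608 and Yy1 (0.029 each), Btg2 to Rsrp1 (0.040) and Ahctf1 (0.042), Spry2 to Vps54 (0.064) and Cdc42ep3 (0.084), and Zfp36l2 to Ankrd54 (0.014) and Ube2d1 (0.027). Between the feedback genes themselves, Dusp5 and Spry4 were the closest pair and Zfp36l2 and Sik1 the farthest (0.819).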
